A study of Mus musculus with 8 samples.

Results

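The 8 genes described here encode membrane pumps of the ATP-binding cassette (ABC) family that move drugs, dyes, conjugates, nucleotides or sterols out of the cell: Abcg2, Abcb1a, Abcb1b, Abcc1, Abcc4, Abcc5, Abca1 and Abcg1. They were taken by name, as 8 of the 53715 genes counted, and gene identifiers were matched to symbols through a GENCODE mouse annotation. RNA was sequenced from mouse bone marrow haematopoietic stem cells, sorted as LSK CD48- CD150+ cells (lineage-negative, Sca-1-positive, Kit-positive). 4 libraries carried the label Gata2; Mx1-Cre Heterozygote (Het), and 4 libraries were Gata2 WT (WT), with 1 library per mouse. Mx1-Cre is a recombinase gene under an interferon-responsive promoter, which acts in many cell types besides stem cells, and pIpC is a double-stranded RNA mimic that triggers interferon. Mice of both genotypes were 8 to 12 weeks old and had received 6 doses of pIpC. The labels name Mx1-Cre for the Het mice and do not say whether WT mice carried it, so the transgene and the Gata2 allele cannot be told apart.

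ABC transporters use the energy of ATP to carry substrates across membranes, and several of them have long been used to recognise stem cells. ABCG2, the breast cancer resistance protein, expels Hoechst dye and thereby defines the dye-low side population of mouse marrow, in which stem cells are enriched. P-glycoprotein, which mice encode by the paralogs Abcb1a and Abcb1b, expels rhodamine dye and many cytotoxic drugs. The multidrug resistance proteins ABCC1, ABCC4 and ABCC5 export glutathione conjugates and organic anions, including cyclic nucleotides in the case of ABCC4 and ABCC5. ABCA1 and ABCG1 pass cellular cholesterol to apolipoprotein A-I and to high-density lipoprotein, are induced by the sterol-sensing LXR receptors, and in mice their combined loss expands haematopoietic progenitors. GATA2 is a zinc-finger transcription factor that blood stem cells need for their formation and upkeep.

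The libraries held 16750778 to 22861884 fragments assigned to genes. Gata2 itself measured 35.5, 61.9, 36.7 and 45.1 CPM in Het-labelled replicates 1 to 4, against 30.1, 45.3, 29.1 and 38.5 CPM in WT replicates 1 to 4, where CPM is the count scaled to a common library size with TMM, a correction for differences in RNA composition. Its log2 fold change of 0.33 (SE 0.23, edgeR adjusted p = 0.858) gave no sign of a lower total transcript, and because counts were summed over the exons of the gene, a transcript lacking some exons would still have been counted. Directions below therefore follow the deposited labels, and the libraries are called Het-labelled. The stem cell markers Procr, Slamf1, Kit, Ly6a, Hlf and Mecom were present, and 8 of 13 lymphoid markers, Cd3e, Cd8a, Pax5, Rag1 and Il7r among them, had 0 counts in each of the 8 libraries. Of the 5 lymphoid markers with counts, Cd79b, a B-cell receptor subunit, measured 113 CPM in Het-labelled and 119 CPM in WT libraries. Klrb1c, an NK cell receptor gene, measured 1.04 CPM in Het-labelled and 4.97 CPM in WT libraries (edgeR adjusted p = 0.850). Its libraries did not overlap, as was the case on the lower side for 1.82% of the genes tested. Granulocyte markers summed to between 184 and 318 CPM in Het-labelled and between 216 and 347 CPM in WT libraries. The stem cell marker Fgd5 was low, at 2.59 CPM in Het-labelled and 1.83 CPM in WT libraries.

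The 8 transporters spanned a wide range of levels, and the most abundant of them were the same in each library. TPM, which scales counts by gene length and library size, is used to compare genes. Abcg1 was the most abundant, at 724 ± 27.9 TPM in Het-labelled and 532 ± 38.9 TPM in WT libraries (SD, n = 4 each), and it ranked 277th of the 13992 genes tested. Abcg2 followed at 134 ± 1.53 TPM in Het-labelled and 127 ± 13.6 TPM in WT libraries. Abcb1b stood at 15.3 ± 2.20 TPM in Het-labelled and 16.6 ± 2.51 TPM in WT libraries. These 3 genes kept their places in 8 of 8 libraries, since the ranges of neighbours down to Abcc1 did not overlap.

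The remaining transporters lay close together. Abcc1 averaged 8.89 ± 2.19 TPM in Het-labelled and 8.27 ± 1.40 TPM in WT libraries, and Abcc4 averaged 7.01 ± 3.49 and 7.79 ± 3.78 TPM in Het-labelled and WT libraries. Abcc1 exceeded Abcc4 in 5 of 8 libraries, so their order in TPM was within the spread between mice. That order also rests on the exon lengths used, 15092 bases for Abcc1 and 6389 for Abcc4. Before scaling by length, Abcc1 had the higher CPM in each library. Abcc5 averaged 3.65 ± 1.03 TPM in Het-labelled and 4.38 ± 0.482 TPM in WT libraries. Abca1 averaged 2.53 ± 1.90 TPM in Het-labelled and 2.15 ± 1.28 TPM in WT libraries. Abcb1a was the lowest, at 0.678 ± 0.807 TPM in Het-labelled and 1.36 ± 0.903 TPM in WT libraries. From Abcc1 downward the ranges of neighbouring genes overlapped, although the higher neighbour led in 7 of 8 libraries for the last 3 pairs.

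**Figure D1:**
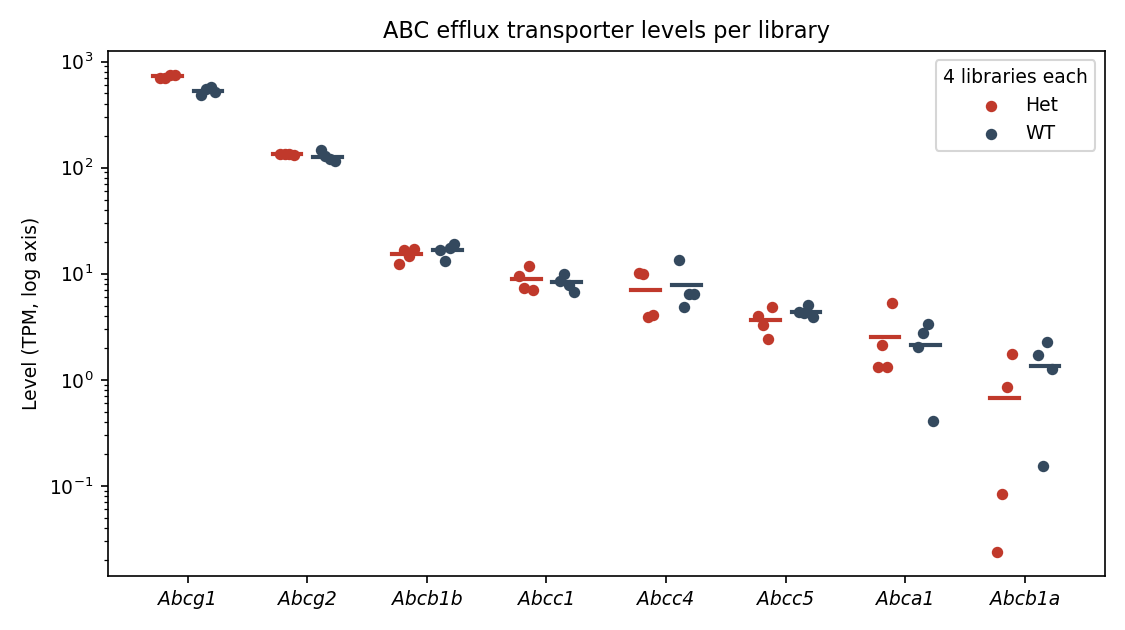
Level of each transporter in TPM (log axis) with 1 point per library, Het-labelled libraries in red on the left and WT libraries in dark blue on the right of each gene, and a bar at the mean of 4 libraries. Abcg1 and Abcg2 stand well above the rest, and Abcb1a and Abca1 are the lowest and most scattered.

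No gene in the transcriptome passed the threshold between the genotypes with edgeR, and the 8 transporters were no exception. With an adjusted p under 0.05 as the call, edgeR's quasi-likelihood test called 0 of 13992 genes (0%) and 0 of the 8 transporters, each of which had passed the filter on low counts. At an unadjusted p under 0.05 there were 792 genes (5.66%), of which genes higher in Het-labelled libraries made up 2.37% of those tested and lower ones 3.29%. They included 1 of the 8 transporters, Abcg1, on the higher side. DESeq2 called 79 of the 15650 genes it tested (0.505%, with 0.262% higher), again with Abcg1 as the 1 transporter. The transporters divided into 4 with positive and 4 with negative log2 fold changes around a median of 0.05, against a median of -0.02 over all genes tested.

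Abcg1 (ENSMUSG00000024030.6, chromosome 17 from 31057698 to 31115777, plus strand, GRCm38) exports cholesterol to lipoprotein particles. It measured 1092.6, 1130.2, 1244.9 and 1210.1 CPM in Het-labelled replicates 1 to 4, against 709.8, 776.4, 974.8 and 825.6 CPM in WT replicates 1 to 4. The 4 Het-labelled libraries lay above the 4 WT libraries, and the WT library nearest to them was replicate 3. A separation of this kind, with no overlap in either direction, was seen in 3.47% of the genes tested (1.65% higher and 1.82% lower in Het-labelled libraries), and in 1 of the 8 transporters. Abcg1 was 1.42-fold higher in the Het-labelled libraries (95% interval 1.20 to 1.69; log2 fold change 0.51, SE 0.11). The unadjusted p of 0.00104 was the 16th smallest of 13992, and the adjusted p was 0.834 by edgeR, so the gene did not pass over all genes. The DESeq2 adjusted p was 0.0108. Permuting the libraries exactly, with log2 CPM and both tails counted, gave a permutation p = 0.0286, the smallest that 70 assignments of 4 against 4 libraries allow. Groups that do not overlap always give this value, so it restates the separation and adds no further evidence. Over the alternative treatments of the data the log2 fold change ran from 0.45 to 0.67, positive in 17 of 17, with adjusted p from 0.0108 to 1.00 and an unadjusted p under 0.05 in 17 of 17.

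Markers of other cells were examined beside this difference. Transcripts of the multipotent progenitor list (Cd48, Flt3, Cd34, Cd53 and Emb among them) summed to between 986 and 1175 CPM in Het-labelled and between 720 and 934 CPM in WT libraries. Of its 8 genes 7 were tested, 7 had a positive log2 fold change (6712 of 13992 genes did), 3 had an unadjusted p under 0.05 on the higher side (2.37% of all genes), edgeR called 0 and DESeq2 called 2 (0.505% of all genes), among them the leukocyte surface gene Cd53, at 306 ± 15.8 CPM in Het-labelled and 179 ± 49.4 CPM in WT libraries. Endothelial markers, of which 8 of 8 had counts, summed to between 54.6 and 86.3 CPM in Het-labelled and between 87.3 and 105.8 CPM in WT libraries. Of 4 tested 1 was higher and 3 lower (median log2 fold change -0.40), 1 of the lower at an unadjusted p under 0.05, with 0 called by edgeR or DESeq2. Most of the sum came from Pecam1, Emcn and Eng, each lower on average in Het-labelled libraries. Pecam1 is also a stem cell adhesion gene, so the sum does not measure endothelial cells alone. The others averaged at most 1.44 CPM in either genotype. Of them Cdh5, Kdr, Plvap and Stab2 averaged higher in Het-labelled libraries and Flt4 higher in WT libraries. Megakaryocyte and platelet markers summed to between 535 and 847 CPM in Het-labelled and between 717 and 1006 CPM in WT libraries. Of 11 tested 10 were lower (7280 of 13992 genes were), with a median log2 fold change of -0.62. Of the lower ones 2 had an unadjusted p under 0.05 (3.29% of all genes). DESeq2 called 1 (0.505% of all genes) and edgeR called 0. Erythroid markers summed to between 47.4 and 88.2 CPM in Het-labelled and between 62.8 and 140.1 CPM in WT libraries. Of 10 tested 9 were lower (7280 of 13992 genes were), with a median of -0.78 and 0 at an unadjusted p under 0.05. The part of any of these lists in the Abcg1 difference was not tested. In bulk RNA a change in the share of a cell type and a change in RNA per cell cannot be told apart.

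**Figure D2:**
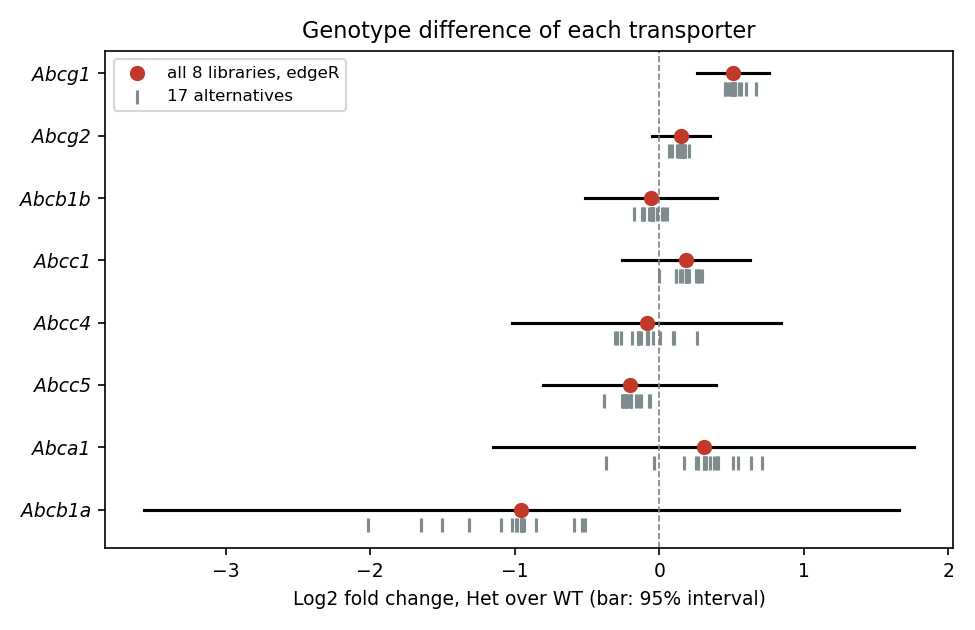
Log2 fold change of each transporter, Het over WT, from edgeR on 8 libraries (red point) with its 95% interval (bar), and the same value under 17 alternative treatments of the data (grey ticks). The Abcg1 interval, 0.26 to 0.76, is the one that lies clear of 0, and the intervals of Abca1 and Abcb1a are the widest.

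Abca1 (ENSMUSG00000015243.4, chromosome 4 from 53030787 to 53159895, minus strand), the partner of Abcg1 in cholesterol export, varied from mouse to mouse without a common direction. It measured 5.21, 8.81, 5.62 and 22.1 CPM in Het-labelled replicates 1 to 4, against 7.53, 9.91, 14.6 and 1.67 CPM in WT replicates 1 to 4. The groups overlapped, the highest library being Het-labelled replicate 4 and the lowest WT replicate 4. The log2 fold change was 0.31 (SE 0.65, edgeR adjusted p = 0.952). It turned to -0.37 without Het-labelled replicate 4 and to -0.035 without WT replicate 4. Macrophages are cells in which Abca1 is prominent, and the 13 macrophage and monocyte markers summed to between 28.8 and 46.1 CPM in Het-labelled and between 33.5 and 64.5 CPM in WT libraries. Cd68 made up most of that sum, at 33.3 CPM in Het-labelled and 30.3 CPM in WT libraries, and each other marker averaged under 3 CPM in either genotype. Counts were found for 13 of 13 markers, with Adgre1, Cd14 and Fcgr1 at 0 in the Het-labelled libraries and Mertk at 0 in the WT libraries. The part of these markers in the level of Abca1 was not tested.

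The promoter of Abca1 is shown because it holds the sterol response element through which LXR receptors act. The window is RefSeq's, 250 bases before to 50 bases after the start of transcription, at chr4:53159846-53160145 on the minus strand of GRCm38.p6. Capitals mark the DR4 sterol element, a direct repeat of a receptor half-site around a spacer, on the opposite strand, whose first printed base lies 67 bases before the start. The pattern searched was written after the known Abca1 element, so the choice of pattern fixed this match.

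Abca1: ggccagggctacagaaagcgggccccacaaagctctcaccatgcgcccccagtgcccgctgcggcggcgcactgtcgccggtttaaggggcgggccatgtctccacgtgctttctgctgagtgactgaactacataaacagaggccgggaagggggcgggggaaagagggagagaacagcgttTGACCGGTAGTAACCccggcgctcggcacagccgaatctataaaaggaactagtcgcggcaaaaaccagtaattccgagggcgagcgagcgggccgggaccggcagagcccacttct

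That pattern was found on either strand in 12 of 32851 promoter windows (0.0365%). The consensus DR4 repeat was found in 5 windows (0.0152%), and in none of the windows of the 6 transporters that the RefSeq promoter table holds. A match describes the letters alone.

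Abcg2 (ENSMUSG00000029802.13, chromosome 6 from 58584523 to 58695676, plus strand), the dye pump of the side population, was the steadiest of the 8 genes. It measured 422, 440.3, 443 and 432 CPM in Het-labelled replicates 1 to 4, against 425, 361, 408 and 370 CPM in WT replicates 1 to 4. The Het-labelled libraries lay close together, and the groups overlapped because WT replicate 1 lay above Het-labelled replicate 1. The coefficient of variation over the 8 libraries was 7.60%, against 1.09% from counting alone at a mean of 8350.1 counts. The log2 fold change was 0.15 (SE 0.09, edgeR adjusted p = 0.850), a fold of 1.11 with a 95% interval of 0.968 to 1.28, and the exact permutation test gave p = 0.0571. It was 0.067 with library trends on GC and length removed and 0.089 with library size alone as the scaling. The SD between libraries was 9.44 CPM in Het-labelled and 30.7 CPM in WT mice. The gene shares its chromosome with Gata2, whose start lies 29498215 bases beyond the end of Abcg2. RefSeq lists 3 starts for it, at positions 58584533, 58596672 and 58640546, which a count per gene does not separate.

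The 2 genes of mouse P-glycoprotein lie side by side on chromosome 5, Abcb1a (ENSMUSG00000040584.8) from 8660077 to 8748575 and Abcb1b (ENSMUSG00000028970.9) from 8798147 to 8866315, both on the plus strand and 49572 bases apart. Abcb1b supplied nearly all of the pair's transcripts. Its mean level was 15.7-fold that of Abcb1a in TPM. Abcb1b measured 38.03, 53.9, 47.8 and 55.0 CPM in Het-labelled replicates 1 to 4, against 47.8, 36.1, 58.5 and 59.9 CPM in WT replicates 1 to 4. The groups overlapped throughout, with a log2 fold change of -0.06 (SE 0.20, edgeR adjusted p = 0.971) and a 95% interval of the fold from 0.702 to 1.32.

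Abcb1a was nearly silent in some mice and not in others. Its counts were 1, 3, 35 and 75 in Het-labelled replicates 1 to 4, against 82, 6, 109 and 62 in WT replicates 1 to 4. Low libraries occurred in both genotypes, Het-labelled replicates 1 and 2 and WT replicate 2. The coefficient of variation over the 8 libraries was 87.4%, against 14.6% from counting alone at a mean of 46.6 counts. The log2 fold change was -0.95 (SE 1.17, edgeR adjusted p = 0.926), and it was -2.02 without Het-labelled replicate 4 and -0.51 without WT replicate 3. Abcb1a made up 0.192%, 0.495%, 5.50% and 9.24% of the pair's TPM in Het-labelled replicates 1 to 4, against 9.37%, 1.16%, 11.5% and 6.23% in WT replicates 1 to 4. The means were 3.86% ± 4.34 in Het-labelled and 7.07% ± 4.50 in WT libraries (SD, n = 4 each), and the exact permutation test of the difference, two-sided, gave p = 0.257.

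Between these paralogs some reads are ambiguous. Of the 75-base windows along the longest Abcb1a transcript 10.6% occurred unchanged in an Abcb1b transcript, and 12.4% of Abcb1b windows occurred in Abcb1a, so fragments from those stretches may have been left out of both counts. The separate levels are to that extent uncertain. The promoters of the pair are printed because the genes lie side by side and differ in level. The windows are at chr5:8566841-8567140 for Abcb1a and chr5:8797897-8798196 for Abcb1b, on the plus strand of GRCm38.p6. Capitals mark a GATA word (AGATAA or TGATAA, or either of them with G as its last letter) in Abcb1a and CCAAT boxes in Abcb1b, each searched on both strands.

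Abcb1a: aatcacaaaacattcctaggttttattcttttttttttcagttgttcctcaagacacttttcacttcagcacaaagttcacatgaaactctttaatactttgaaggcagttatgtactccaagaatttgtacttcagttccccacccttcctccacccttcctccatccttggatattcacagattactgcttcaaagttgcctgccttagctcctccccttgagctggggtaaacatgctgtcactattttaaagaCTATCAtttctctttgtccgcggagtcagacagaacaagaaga

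Abcb1b: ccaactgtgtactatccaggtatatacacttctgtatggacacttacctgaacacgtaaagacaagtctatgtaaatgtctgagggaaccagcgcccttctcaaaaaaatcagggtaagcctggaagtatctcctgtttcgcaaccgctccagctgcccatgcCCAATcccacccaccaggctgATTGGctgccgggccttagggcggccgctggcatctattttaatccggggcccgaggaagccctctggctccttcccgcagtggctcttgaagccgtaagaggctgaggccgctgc

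The Abcb1b window held 2 CCAAT boxes, on opposite strands, beginning 87 and 66 bases before the start, and no GATA word. The Abcb1a window held 1 GATA word, just after the start, and no CCAAT box. CCAAT boxes occurred in 37.4% and GATA words in 29.8% of the 32851 windows, and matches of the motifs did not overlap in either gene. The Abcb1a start given by RefSeq lies 92986 bases before the start of the gene as it was counted, so the window shown precedes an exon outside the counted model. Over the 6 transporters with a window, GATA words were also present in Abcc4, at its second start, and were absent from Abcg2, Abcc5 and Abca1.

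**Figure D3:**
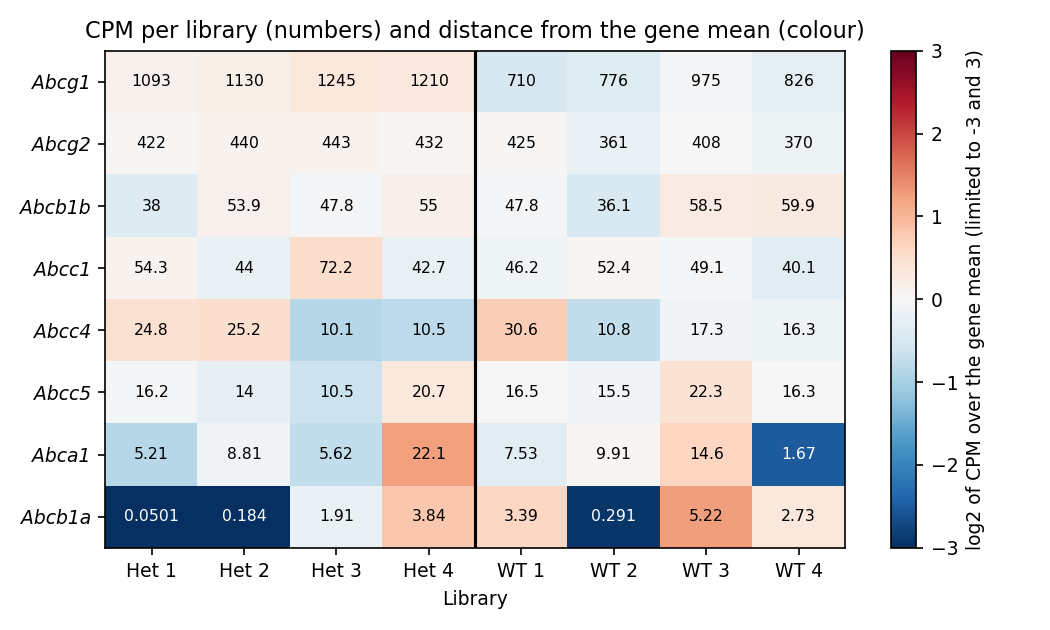
CPM of each transporter in each library (numbers), Het-labelled libraries left of the line and WT libraries right of it, with colour for log2 of CPM over the gene's mean, limited to -3 and 3. The Abcg1 row is the one that divides at the line, the Abcg2 row is nearly even, and the low Abcb1a libraries occur on both sides.

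The multidrug resistance proteins of the ABCC group showed no shift between the genotypes that exceeded the spread between mice. Abcc1 (ENSMUSG00000023088.17, chromosome 16 from 14361558 to 14475737, plus strand), the exporter of glutathione conjugates, measured 54.3, 44.0, 72.2 and 42.7 CPM in Het-labelled replicates 1 to 4, against 46.2, 52.4, 49.1 and 40.1 CPM in WT replicates 1 to 4. Het-labelled replicate 3 was the highest, and the groups overlapped. Its log2 fold change was 0.18 (SE 0.20, edgeR adjusted p = 0.914), and it was 0.0014 without that library and 0.29 with GC and length trends removed.

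Abcc4 (ENSMUSG00000032849.14, chromosome 14 from 118482692 to 118706219, minus strand), an exporter of cyclic nucleotides, measured 24.8, 25.2, 10.1 and 10.5 CPM in Het-labelled replicates 1 to 4, against 30.6, 10.8, 17.3 and 16.3 CPM in WT replicates 1 to 4. Its level came in a high and a low pair among the Het-labelled mice, and the same range was covered by WT mice. The log2 fold change was -0.09 (SE 0.42, edgeR adjusted p = 0.982), and its sign turned with 3 of the left-out libraries, to 0.26 without WT replicate 1.

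Abcc5 (ENSMUSG00000022822.15, chromosome 16 from 20331303 to 20426394, minus strand), which also carries cyclic nucleotides, measured 16.2, 14.0, 10.5 and 20.7 CPM in Het-labelled replicates 1 to 4, against 16.5, 15.5, 22.3 and 16.3 CPM in WT replicates 1 to 4. The groups overlapped, and WT replicate 3 stood above the other WT libraries. The log2 fold change was -0.21 (SE 0.27, edgeR adjusted p = 0.930), with a 95% interval of the fold from 0.574 to 1.31, and it was -0.39 without Het-labelled replicate 4 and -0.06 without Het-labelled replicate 3.

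No pair of transporters varied together beyond the threshold. Over 28 pairs and 8 libraries the smallest permutation p of Pearson's r belonged to Abcb1a and Abcb1b, with Pearson's r = 0.69 (exact permutation p = 0.0653, adjusted p = 0.897 over the pairs) and Spearman's rho = 0.60 (exact permutation p = 0.132). Without the 2 libraries farthest from the median of Abcb1a, r was 0.89. For Abcg2 and Abcg1 r was 0.67 (exact permutation p = 0.0736, adjusted p = 0.897) and rho 0.74 (exact permutation p = 0.0458). With each genotype centred on its own mean that r was 0.05, and without the 2 libraries farthest in Abcg2 it was 0.48. The smallest permutation p of Spearman's rho belonged to Abcb1a and Abcc5, with rho = 0.79 (exact permutation p = 0.0279), where r was 0.37 (exact permutation p = 0.361, adjusted p = 0.897).

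The genes most like each transporter were ranked by Pearson's r of log2 CPM over the 8 libraries, among 8765 protein-coding genes of at least 5 CPM. With so many candidates and 8 libraries high values are bound to occur, so they are descriptive. Nearest to Abcg1 were Gpr45 (r = 0.97), Rbm47 (r = 0.97) and Lgr4 (r = 0.97), whose log2 fold changes were 0.89 (SE 0.22), 1.15 (SE 0.31) and 0.93 (SE 0.32). Because Abcg1 itself divided by genotype, choosing genes by likeness to it favours positive fold changes, so these are no separate result. Nearest to Abcg2 were Zfp2 (r = 0.96), Nqo1 (r = 0.95) and Mpp6 (r = 0.95). Nearest to Abcb1b were 2310039H08Rik (r = 0.98), Tlk2 (r = 0.97) and Pon3 (r = 0.95). Dhrs1 followed Abcc5 with r = 0.998, Tomt followed Abcc1 with r = 0.96, Eya1 followed Abcc4 with r = 0.93 and Cep85l followed Abca1 with r = 0.93. Abcb1a had too few counts for this ranking.

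Within the whole ABC family the 8 transporters carried 61.8% of the transcripts by summed TPM, and Abcg1 alone carried 48.6%. The family list held 53 genes, of which 13 had 0 counts in each of the 8 libraries and 29 were tested. Abce1, a ribosome recycling factor with no transport role, was second to Abcg1 at 202 TPM over the 8 libraries, and Abcf2 reached 60.2 TPM. The sterol transporters Abcg5 and Abcg8, the bile salt pump Abcb11 and the brain form Abcg4 were among those at 0. Abcb4, the phospholipid transporter next to the P-glycoprotein genes, averaged 2.03 TPM in Het-labelled and 3.48 TPM in WT libraries, with a log2 fold change of -0.71 (SE 0.42, edgeR adjusted p = 0.850). Abcg3, a mouse relative of Abcg2, averaged 32.2 TPM in Het-labelled and 34.7 TPM in WT libraries.

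Of the 21 other ABC genes tested 5 lay above and 16 below a log2 fold change of 0 (7280 of 13992 genes lay below). Their median was -0.54, and 0 passed the threshold by edgeR or DESeq2. On the lower side 1 had an unadjusted p under 0.05 (3.29% of all genes). That gene was Abcf1, a translation factor of the family, at 39.8 ± 6.94 CPM in Het-labelled and 58.9 ± 15.1 CPM in WT libraries (log2 fold change -0.57, SE 0.22, edgeR adjusted p = 0.850). Tap1, a subunit of the peptide pump of antigen presentation and an interferon-inducible gene, measured 38.4 ± 12.6 CPM in Het-labelled and 63.1 ± 23.2 CPM in WT libraries, with a log2 fold change of -0.72 (SE 0.34). Abcf2 had a log2 fold change of -0.76 (SE 0.37), and the mitochondrial transporter Abcb8 one of -1.45 (SE 0.71). Abce1 stood at 0.04 (SE 0.15) on the same scale. The median was -0.31 after library trends with GC content and length had been removed, -0.30 without WT replicate 2 and -0.27 with limma.

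**Figure D4:**
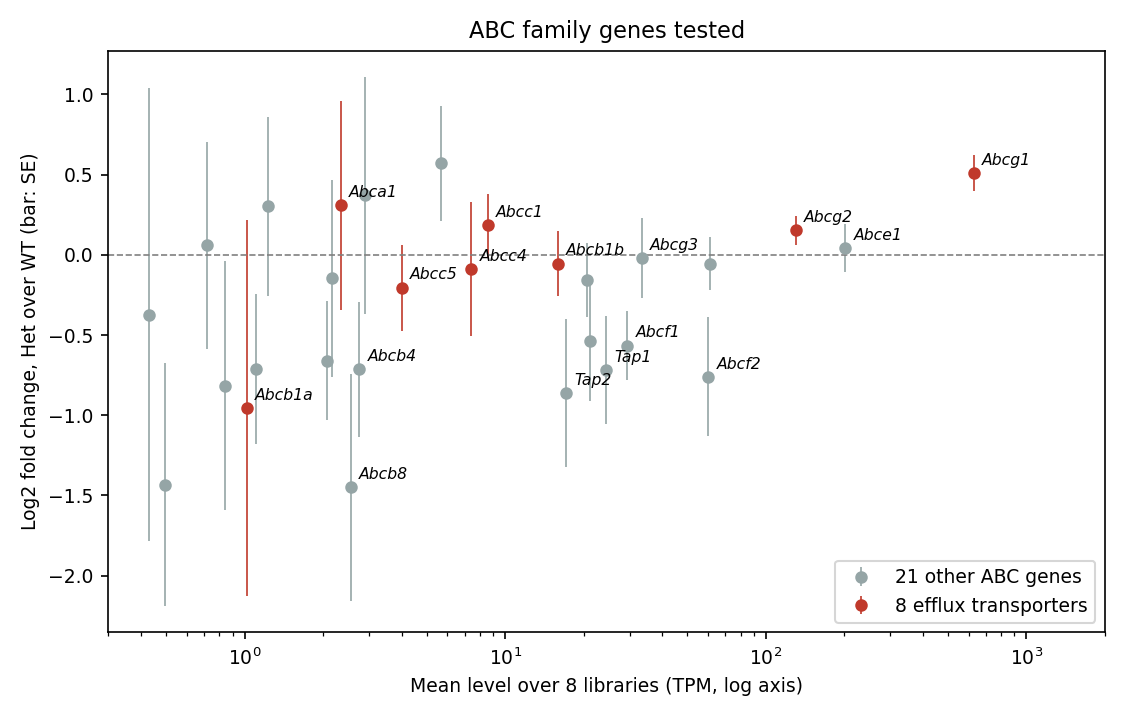
Log2 fold change, Het over WT (bar: SE), against mean TPM over 8 libraries (log axis) for the 29 ABC family genes tested, the 8 efflux transporters in red and the 21 others in grey. Abcg1 is the most abundant gene and lies at 0.51, while 16 of the grey points lie below 0.

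Genes around the sterol exporters did not share one direction. The list of LXR receptors, partners and targets had 6 of 17 tested genes higher and 11 lower (median log2 fold change -0.08), 2 of them with an unadjusted p under 0.05 and 0 past the threshold. Apoe, a lipoprotein and LXR target, measured 603 ± 66.3 CPM in Het-labelled and 771 ± 98.3 CPM in WT libraries, a log2 fold change of -0.35 (SE 0.12, edgeR adjusted p = 0.850). Nr1h2, which encodes LXR beta, measured 11.6 ± 3.88 CPM in Het-labelled and 26.2 ± 13.9 CPM in WT libraries, a log2 fold change of -1.18 (SE 0.49, edgeR adjusted p = 0.850). Its WT replicate 3, at 6.13 CPM, was lower than each Het-labelled library. Smpdl3a, another LXR target, had a log2 fold change of 0.11 (SE 0.11).

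Among 23 genes of sterol synthesis and uptake 10 were higher and 13 lower (median -0.02). At an unadjusted p under 0.05 there were 2 of the higher and 1 of the lower (2.37% and 3.29% of all genes). Insig1, which restrains sterol synthesis, measured 86.8 ± 8.51 CPM in Het-labelled and 61.8 ± 16.3 CPM in WT libraries. It had a log2 fold change of 0.49 (SE 0.19), and Pmvk, a kinase of the mevalonate pathway, went the other way at -0.34 (SE 0.15). The libraries of Pmvk did not overlap, as was the case on the lower side for 1.82% of all genes. Cholesterol trafficking genes had 6 of 13 higher and 7 lower (median -0.17), and none reached an unadjusted p of 0.05 (5.66% of all genes). Npc2, which moves cholesterol out of lysosomes, stood at 364 ± 17.5 CPM in Het-labelled and 333 ± 46.5 CPM in WT libraries.

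Described regulators of the drug pumps had 8 of 14 tested genes higher and 6 lower (median 0.14), with 3 of the higher and 1 of the lower at an unadjusted p under 0.05 (2.37% and 3.29% of all genes). Nr3c1, the glucocorticoid receptor, measured 169 ± 15.7 CPM in Het-labelled and 129 ± 7.59 CPM in WT libraries without overlap, which was the case for 3.47% of all genes in either direction. Its log2 fold change was 0.39 (SE 0.11), with an adjusted p of 0.850 by edgeR and 0.0428 by DESeq2. Foxo3, a transcription factor of quiescent stem cells, stood at 0.52 (SE 0.19), Arnt, the partner of hypoxia-inducible factors and of the aryl hydrocarbon receptor, at 0.60 (SE 0.26), and Ybx1, a Y-box protein, at -0.52 (SE 0.23).

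Genes that supply substrates to the pumps were examined as well. Of 26 genes of glutathione synthesis and conjugation 11 were higher and 15 lower (median -0.04). Of the lower ones 1 had an unadjusted p under 0.05 (3.29% of all genes). It was the peroxidase gene Gpx4, at 145 ± 19.3 CPM in Het-labelled and 187 ± 15.8 CPM in WT libraries (log2 fold change -0.37, SE 0.12, edgeR adjusted p = 0.850). Of 17 genes of haem synthesis and handling, relevant because ABCG2 also exports porphyrins, 7 were higher and 10 lower (median -0.06). Of the lower ones 1 had an unadjusted p under 0.05 (3.29% of all genes), and 0 genes of the list passed the threshold by edgeR or DESeq2. The glutathione peroxidase Gpx1 was abundant and had a log2 fold change of -0.08 (SE 0.10).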

How the data were processed

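RNA depleted of ribosomal RNA was made into strand-specific libraries and read as pairs of 75 bases, per the labels' protocols. Trimming used Trim Galore with cutadapt, and alignment used STAR 2.5.1b, per the submitters' processing notes. The authors deposited raw fragment counts per gene, made by featureCounts in reverse-stranded mode on GENCODE M17 (GRCm38), per the file headers, which name version 1.6.2 where the processing notes name 1.5.1. Symbols and GC content came from GENCODE M21 of the same build, and 53620 of 53715 identifiers matched. Promoters came from RefSeq (GRCm38.p6).

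Genes were filtered by filterByExpr, scaled by TMM (factors 0.946 to 1.08) and tested with edgeR 4.0.16 in R 4.3.3, robust quasi-likelihood, genotype as the only term, with Benjamini-Hochberg adjustment over 13992 genes at 0.05. SE values were derived from the fold change and its F statistic. Log2 CPM carries a prior count of 2. TPM was computed from the deposited counts and exon lengths. Counting errors cover sampling only, since PCR copies were not marked. Alternatives were DESeq2 1.42.0, limma 3.58.1 (voom with quality weights), other scalings and filters, a replicate block, a sex term, GC and length trends and each library left out. The procedure was tested on simulated data. Any pair of libraries differed beyond counting noise (chi-square over its degrees of freedom at least 35.4), so none was a second reading of another library. That value cannot tell separate mice from separate libraries of 1 mouse. Each library counted as a sample because there was 1 library per mouse. The members and lists were chosen with earlier results of these data known. The genes named are the 8 transporters, Gata2, up to 4 genes per list by unadjusted p with the 2 highest by TPM, sort markers and the 3 genes most like each transporter. Further ABC family and marker genes were named after their values were seen. Some genes that this rule selects are not reported here.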

Additional observations from a re-analysis of the deposited data

Results flagged for a closer look

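Within a group of 4 libraries, a library was singled out when its gap to the nearest other exceeded Dixon's critical share of the group's range. Of 140 groups examined 5 met this, and chance alone gives about 1 in 20. Among the transporters it was Abcc5 in WT replicate 3, at 22.3 CPM, where the other WT libraries held 15.5 to 16.5 CPM. Among the genes around them, Abcf1 in Het-labelled replicate 4 stood at 50.2 CPM, against 35.5 to 36.8 CPM in the other Het-labelled libraries. Stard4, a sterol carrier, in Het-labelled replicate 3 stood at 229 CPM, against 191 to 197 CPM. Among marker genes, S100a8, a granulocyte gene, in WT replicate 3 stood at 91.7 CPM, against 29.3 to 34.1 CPM, and Pecam1, an endothelial and stem cell adhesion gene, in WT replicate 4 stood at 53.2 CPM, against 30.0 to 33.6 CPM in the other WT libraries.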

How the results depend on the processing

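The rank of each transporter by mean level was the same with each library left out. It was also the same with CPM per kilobase. That scaling uses the same gene lengths as TPM and keeps the order within each library, so it could not test the lengths. edgeR called 0 genes in each alternative, limma called 0, and DESeq2 called 79 genes and 1 transporter, Abcg1, at a log2 fold change of 0.52 (adjusted p = 0.0108). Genes at an unadjusted p under 0.05 numbered 792, and 1412 with DESeq2, 1461 with limma, 1472 with no filter and 557 to 1812 with a library left out, the highest without WT replicate 3. With a library left out, log2 fold changes ran from -0.17 to 0.056 for Abcb1b, -0.31 to 0.26 for Abcc4 and -0.37 to 0.71 for Abca1, so each changed sign, and Abcc4 stood at 0.0062 with GC and length trends removed. The cause was not tested. With a library left out, ranges were 0.45 to 0.60 for Abcg1, 0.13 to 0.20 for Abcg2, 0.0014 to 0.27 for Abcc1, -0.39 to -0.06 for Abcc5 and -2.02 to -0.51 for Abcb1a. Abcg2 stood at 0.067 and Abcc1 at 0.29 with GC and length trends removed, and at 0.089 and 0.12 with library size alone. With limma Abcc5 stood at -0.13, Abcb1a at -1.65, Abca1 at 0.63, Abcc4 at -0.19 and Abcb1b at -0.014. With the replicate block Abcb1a stood at -1.50, Abca1 at 0.17 and Abcc4 at -0.14. None of these values passed the threshold. The difference in Abcb1a share ran from -5.18 to -1.73 percentage points. The median of the other ABC genes was -0.27 with limma, -0.31 with GC and length trends removed and -0.56 to -0.30 with a library left out. The haem median was 0.080 with GC and length trends removed and -0.17 to 0.038 with a library left out. Same-numbered libraries had correlations of 0.0091 to 0.105 in their deviations from group means. Replicate 3 was nearest to its own number, at 0.105 against -0.032 for the best other, and replicates 1, 2 and 4 were not. The numbers were therefore not taken as pairs. With the replicate block edgeR called 0 genes and Abcg1 stood at 0.52.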
